A study of Homo sapiens with 17 samples.

Results

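A dividing cell condenses its chromosomes, builds a spindle, attaches each pair of sister chromatids to it through kinetochores, and separates them before it cleaves. The 49 genes described here encode proteins of that process: the kinases and cyclins that start mitosis, the transcription factors that switch mitotic genes on, and the parts of the chromosome, centromere, kinetochore, spindle checkpoint, spindle and cleavage machinery. They were chosen by gene symbol from 60662 genes held by both count tables, and all 49 were found and passed the filter on low counts in every fit, with at least 88 counts in each library. Mitotic genes are transcribed mostly in G2 and M phase, when B-MYB (the product of MYBL2) and FOXM1 join the MuvB core, and in resting cells the same promoters are held down by the DREAM complex, which contains that core. Their hg38 positions (GENCODE v44) are given here for those the results turn on: UBE2C (ENSG00000175063.17, chromosome 20, 45812576 to 45816957), FOXM1 (ENSG00000111206.12, chromosome 12, 2857680 to 2877174), MYBL2 (ENSG00000101057.16, chromosome 20, 43667019 to 43716495), MKI67 (ENSG00000148773.14, chromosome 10, 128096659 to 128126423), AURKA (ENSG00000087586.17, chromosome 20, 56369389 to 56392337), BIRC5 (ENSG00000089685.15, chromosome 17, 78214186 to 78225636) and BUB3 (ENSG00000154473.18, chromosome 10, 123154402 to 123170467), all of them genes that code for protein. Neuroblastoma is a childhood tumor of the sympathetic nerve lineage in which such genes are read as a sign of proliferation.

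The study asks how retinoic acid, which makes neuroblastoma cells differentiate or die, acts on CHP-134, an established human line that is very sensitive to it and carries extra copies of MYCN. In culture, cells were kept in the solvent DMSO or in ATRA, the all-trans form of retinoic acid, at 2 µM for 1, 3 or 6 days, with 2 libraries per group. In mice, 5 libraries came from control tumors and 4 from tumors treated with 13-cis-retinoic acid (RA tumors), given by mouth at 25 mg/kg with 2 doses per day. These tumors grew under the skin of adult female athymic nude mice, which lack T cells, from CHP-134 cells labelled with luciferase. The line is the same in every group, so each result describes 1 cell line. Most cultured cells die by 6 days of ATRA, as the paper states, so values at that time describe survivors. In bulk RNA, fewer cells in division and less mitotic RNA per cell cannot be told apart.

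The depth was 31607051 to 39422897 counts per library in culture and 17266558 to 29078889 in tumors. HAND2, a transcription factor of the sympathetic lineage, was at 183 to 279 CPM in cells, in counts scaled to a common library total, and 136 to 159 CPM in tumors. Of the other markers of that lineage, CHGA (224 to 357 CPM in cells and 136 to 202 CPM in tumors) and MYCN (892 to 2168 and 2130 to 3759 CPM) were high in both, and GATA3 (199 to 303 and 31.3 to 52.8 CPM) and PHOX2A (30.6 to 69.6 and 3.02 to 11.4 CPM) were lower in tumors than in cells, each scaled within its own set. ISL1 went from 49.2 and 49.3 CPM with DMSO to 4.92 and 5.20 CPM at 6 days and was at 6.00 to 28.1 CPM in tumors. The noradrenaline enzymes TH and DBH were low, at no more than 3.40 CPM in cells and 7.63 CPM in tumors. RARB, a receptor gene that retinoic acid switches on, was at 0.704 and 0.923 CPM with DMSO and 25.5 and 26 CPM at 6 days, and at 3.03 to 4.17 CPM in control tumors and 7.25 to 10.3 CPM in RA tumors, and it was called higher in both (FDR 4.30e-30 and FDR 0.00194). Summed over 8 leukocyte markers the level was 0.395 to 0.907 CPM in cells and 1.98 to 4.35 CPM in tumors, and over 4 Schwann cell markers 7.24 to 12.7 CPM and 3.00 to 4.86 CPM. The 7 fibroblast markers summed to 31.5 to 59.5 CPM in cells, to 28.1 to 126 CPM in control tumors and to 27.1 to 41.9 CPM in RA tumors, and control tumor 4 was the high one, with COL1A1 at 78.8 CPM. The 6 endothelial markers summed to 1.49 and 1.94 CPM with DMSO and 133 and 143 CPM at 6 days, of which CLDN5 alone made 132 and 142 CPM, while PECAM1, CDH5 and KDR were each at or below 0.273 CPM at 6 days. In tumors the endothelial sum was 2.7 to 8.06 CPM. The part of these other cell types in the results on mitotic genes was not tested.

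The promoters of these genes are shown because members moved together and because their known regulators bind defined short sequences. A RefSeq table (GRCh38.p14) holds windows from 250 bases before to 50 bases after a gene's start, and 41 of the 49 members matched it, with 55 windows. A window was searched on both strands for the cell cycle genes homology region (CHR, TTTGAA), through which MuvB binds, for the CCAAT box (CCAAT), which NF-Y binds, and for an E2F site (TTCCCGC), typical of genes of DNA synthesis. CHR and CCAAT can share a base where TTTGAA runs into ATTGG, the CCAAT box on the other strand. The 4 called members with the largest fall at 6 days and the 2 with the smallest change were printed, among members with a window. Each is shown as the 160 bases before the RefSeq start that lies furthest upstream, with matches in capitals. They are NCAPH (chr2:96335606-96335765, plus strand), AURKB (chr17:8210250-8210409, minus strand), CDCA8 (chr1:37692356-37692515, plus strand), ZWINT (chr10:56361274-56361433, minus strand), CDC25B (chr20:3786791-3786950, plus strand) and INCENP (chr11:62123851-62124010, plus strand).
NCAPH: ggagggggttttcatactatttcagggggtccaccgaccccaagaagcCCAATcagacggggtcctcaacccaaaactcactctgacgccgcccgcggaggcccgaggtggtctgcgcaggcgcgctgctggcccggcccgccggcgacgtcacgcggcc
AURKB: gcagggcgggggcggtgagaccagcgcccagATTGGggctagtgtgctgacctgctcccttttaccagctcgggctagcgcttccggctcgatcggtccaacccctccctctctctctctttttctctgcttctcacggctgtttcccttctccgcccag
CDCA8: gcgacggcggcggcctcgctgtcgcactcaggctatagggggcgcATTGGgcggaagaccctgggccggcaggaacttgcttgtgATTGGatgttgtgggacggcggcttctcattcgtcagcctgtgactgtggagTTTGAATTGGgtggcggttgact
ZWINT: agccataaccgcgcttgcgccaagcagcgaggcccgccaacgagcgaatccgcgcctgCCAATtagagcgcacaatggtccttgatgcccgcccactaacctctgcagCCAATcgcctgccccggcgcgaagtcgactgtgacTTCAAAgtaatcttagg
CDC25B: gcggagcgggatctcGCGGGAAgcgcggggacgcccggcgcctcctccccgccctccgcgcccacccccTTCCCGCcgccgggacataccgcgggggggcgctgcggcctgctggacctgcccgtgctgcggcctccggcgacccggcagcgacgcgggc
INCENP: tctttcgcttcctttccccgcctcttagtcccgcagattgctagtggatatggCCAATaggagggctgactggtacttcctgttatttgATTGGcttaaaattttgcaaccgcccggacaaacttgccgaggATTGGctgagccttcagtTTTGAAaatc

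In these stretches CDCA8 held 3 CCAAT boxes and a CHR whose first base lay 23 bases before the RefSeq start. INCENP held 3 and a CHR at 10 bases, and ZWINT 2 and a CHR at 17 bases. NCAPH and AURKB held 1 CCAAT box each and no CHR, and CDC25B held 2 E2F sites and neither of the others. The AURKB stretch lies inside the gene's GENCODE span, which on the minus strand begins at 8210600. That of CDC25B lies inside a span that begins at 3786772. These 2 stretches therefore do not show the sequence before those starts, and other windows of CDC25B held a CCAAT box. The CDCA8 and INCENP stretches run past their GENCODE starts, at 37692481 and 62123998. The CHR of each lies after that start, as does the CCAAT box of CDCA8 that overlaps its CHR. Over all windows, the CHR was found in 31 of 55 member windows (56.4%), against 15.2% of 35116 windows of all genes and 1 of 40 windows of DNA replication genes (2.50%). The CCAAT box was in 70.9% of member windows, 34.6% of all windows and 60% of the windows of replication genes. The E2F site was in 12.7%, 6.55% and 37.5%. A CHR together with 2 or more CCAAT boxes was in 29.1% of member windows and 1.78% of all. Of the 43 CHR matches in member windows 58.1% lay in the last 80 bases before the RefSeq start, against 22.6% of those in all windows. Windows of 1 gene overlap, and by gene the CHR was in 27 of 41 members. These are matches of letters, not measured binding, and they were not tested.

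After 1 day of ATRA the 49 genes had moved little, with a median log2 fold change of −0.11 against 0.003 over all 20237 genes tested, and a range of −0.33 to 0.15. A gene is called changed when its false discovery rate (FDR, by edgeR's quasi-likelihood test over all genes) is under 0.05 and it differs by more than 2-fold. None of the 49 was called by edgeR or by DESeq2, where 2.74% of all genes were called in either direction. At an unadjusted p under 0.05, 30 of the 49 were lower and 1 was higher. The share of all genes at that unadjusted p was not computed, here or in the later comparisons. By FDR alone 26 were lower, where 13.3% of all genes were, and 1 was higher, where 13.1% of all genes were. With all 17 libraries in 1 fit, which takes up the larger spread of tumors, none passed the FDR at 1 day. By role the median at 1 day was −0.18 for entry into mitosis, −0.16 for cohesion and anaphase, −0.13 for the transcription factors, −0.12 for the passenger complex and for the spindle and its poles, and −0.03 for the centromere and kinetochore and for chromosome structure. AURKA, a kinase of the spindle poles, was at 100 and 98.5 CPM with DMSO and at 81.2 and 77.0 CPM at 1 day, a log2 fold change of −0.33 ± 0.03 (SE, FDR 1.01e-09). PLK1, a kinase that drives entry into mitosis, went from 136 and 136 CPM to 113 and 111 CPM (−0.28 ± 0.03, FDR 6.36e-10). PTTG1, or securin, which holds separase in check until anaphase, went from 56.3 and 57.6 CPM to 47.2 and 48.5 CPM (−0.25 ± 0.04, FDR 1.59e-05). In all 3 genes both treated libraries lay below both DMSO libraries, as in 32 of the 49, where 29.5% of all genes did so. KNTC1, a kinetochore gene, was the one that was higher, at 195 and 198 CPM against 178 and 176 CPM (0.15 ± 0.03, FDR 2.07e-05). MKI67, which coats mitotic chromosomes and serves pathologists as the Ki-67 marker of dividing cells, was at −0.04 ± 0.02 (FDR 0.176).

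By 3 days the median was −0.32 against 0.009 over all genes, and the range −0.53 to 0.03. None was called by edgeR or by DESeq2 (7.87% of all genes were called), while 48 were lower at an unadjusted p under 0.05 and the same number by FDR alone, where 23.1% of all genes were lower. NCAPH, a subunit of the condensin complex that compacts chromosomes, was at 70.5 and 72.7 CPM against 104 and 102 CPM with DMSO (−0.53 ± 0.04, FDR 5.48e-15). AURKB, the kinase of the chromosomal passenger complex, was at −0.50 ± 0.04, and MYBL2 at −0.48 ± 0.02. NEK2, a kinase that splits the centrosomes, was the exception, at 43.2 and 42.7 CPM against 43.6 and 40.2 CPM (0.03 ± 0.05, FDR 0.626).

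From 1 to 3 days 40 of 49 were lower by FDR alone, where 17.6% of all genes were, with a median of −0.24, and none was called by edgeR or DESeq2, while 43 were lower at an unadjusted p under 0.05. ZWINT, which links the checkpoint to the kinetochore, was at −0.004 ± 0.03 at 1 day, fell by 0.42 from 1 to 3 days on the log2 scale (FDR 6.01e-12) and was at 64.8 and 66.5 CPM at 3 days. NCAPH fell by 0.42 and CDC25B, a phosphatase that activates CDK1, fell by 0.40 over that step. PTTG1 was at −0.01 ± 0.04 over the same step (FDR 0.885), at 47.2 and 48.5 CPM on day 1 and 48.1 and 46.9 CPM on day 3. The estimated fall was larger in the first day than from day 1 to 3 for 10 members: AURKA, PLK1, PTTG1, CDC20, UBE2C, CCNB1, CENPA, CCNB2, DLGAP5 and HMMR. The 2 steps share the day 1 libraries and their difference was not tested. In log2 units a median of 4.44% of the 6 day change was in place at 1 day and 13.4% at 3 days.

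**Figure D1:**
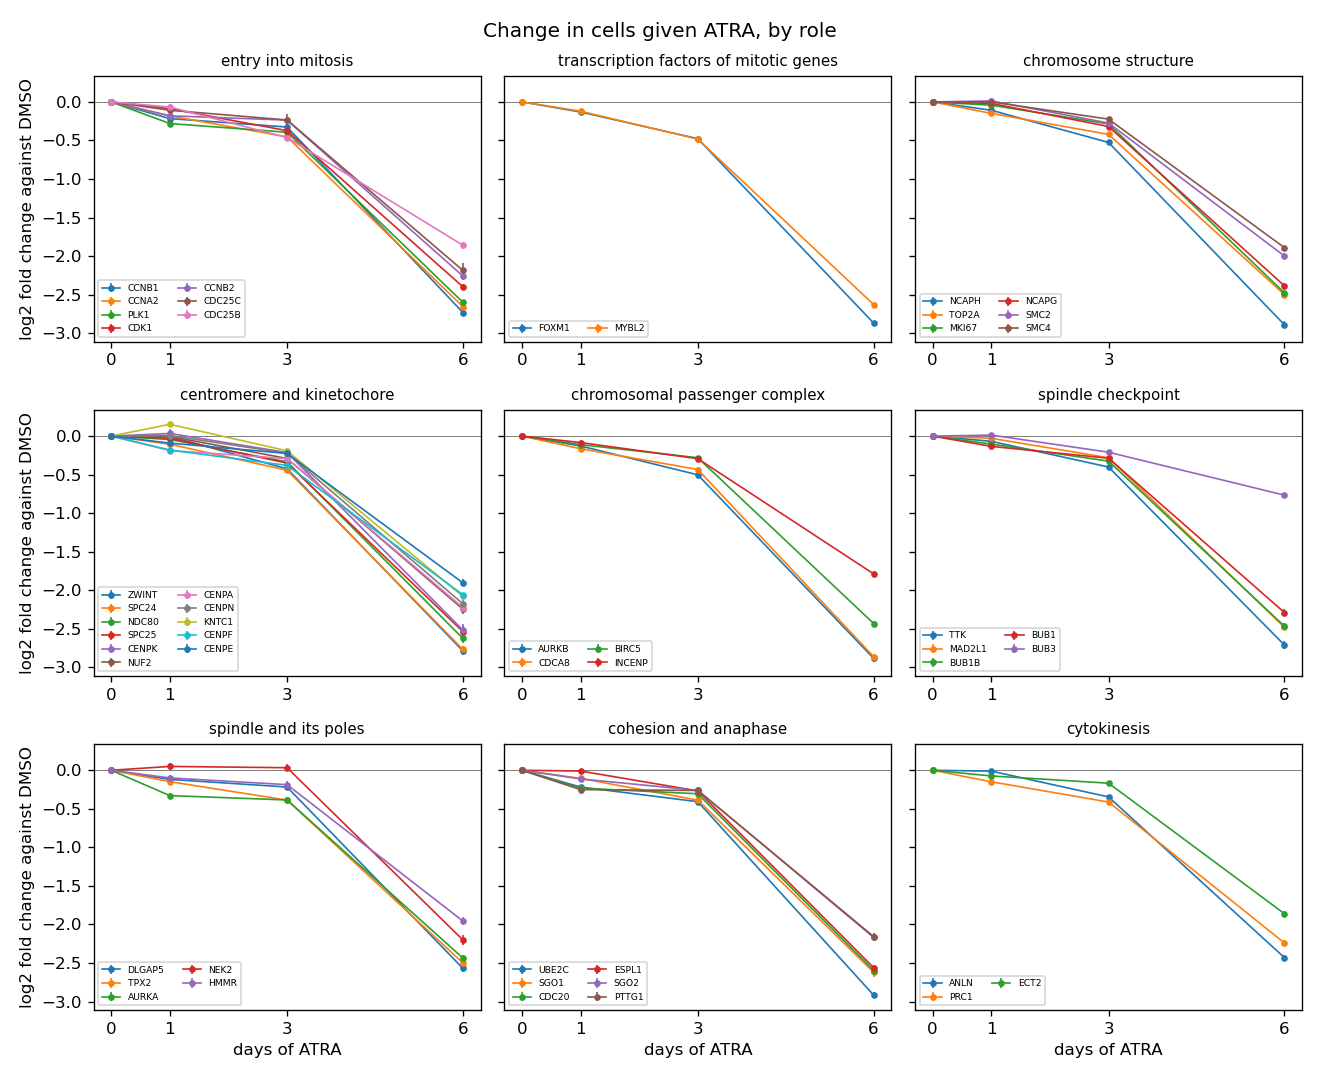
Log2 fold change against DMSO (vertical axis) after 1, 3 and 6 days of ATRA (horizontal axis), with a line per gene, a panel per role and bars of 1 SE; DMSO is drawn at 0. Most of the fall lies between day 3 and day 6, and BUB3 stays above the other genes at 6 days.

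At 6 days 48 of the 49 were called lower and none higher, where 12.3% of all genes were called lower. The median was −2.44, a 5.41-fold lower level, against 0.04 over all genes, and the range was −2.92 to −0.77. Between 3 and 6 days 48 were called lower, where 8.41% of all genes were, with a median of −2.11. In each of the 49 genes both libraries at 6 days lay below both at 3 days, where 41% of all genes did so.

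Of the 7 genes for entry into mitosis all were called. CCNB1, or cyclin B1, the partner of CDK1, went from 131 and 133 CPM with DMSO to 20.3 and 19.5 CPM (−2.73 ± 0.04, 6.64-fold lower, FDR 2.17e-37). CCNA2, or cyclin A2, went from 155 and 146 CPM to 23.3 and 24.5 CPM (−2.66 ± 0.04, FDR 6.03e-37). CDK1, the kinase that both cyclins activate, went from 105 and 108 CPM to 20.1 and 20.3 CPM (−2.40 ± 0.04, FDR 1.04e-34). PLK1 was at −2.60 ± 0.04, CCNB2 at −2.26 ± 0.05 and CDC25C, another CDK1 phosphatase, at −2.19 ± 0.10. The smallest change of this role was that of CDC25B, from 83.7 and 81.1 CPM to 23.2 and 22.2 CPM (−1.86 ± 0.04, FDR 1.75e-30).

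Both transcription factor genes fell. FOXM1 went from 253 and 254 CPM to 35 and 34.4 CPM (−2.87 ± 0.03, 7.30-fold lower, FDR 1.21e-40), and MYBL2 from 498 and 496 CPM to 82.1 and 78.7 CPM (−2.63 ± 0.03, 6.18-fold lower, FDR 8.14e-42). Per kilobase of exon MYBL2 was the highest member with DMSO, at 179 CPM per kb.

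The 6 genes of chromosome structure were all called. NCAPH went to 14.9 and 12.9 CPM (−2.89 ± 0.05, FDR 2.37e-35). TOP2A, the topoisomerase that untangles sister chromatids, went from 956 and 935 CPM to 169 and 166 CPM (−2.50 ± 0.02, FDR 3.95e-43), and MKI67 from 460 and 448 CPM to 82.2 and 81.0 CPM (−2.48 ± 0.03, 5.57-fold lower, FDR 1.06e-40). The condensin genes NCAPG and SMC2 were at −2.39 ± 0.03 and −2.0 ± 0.04. SMC4, their partner, moved least in this role, from 449 and 435 CPM to 123 and 116 CPM (−1.89 ± 0.03, FDR 2.71e-35).

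**Figure D2:**
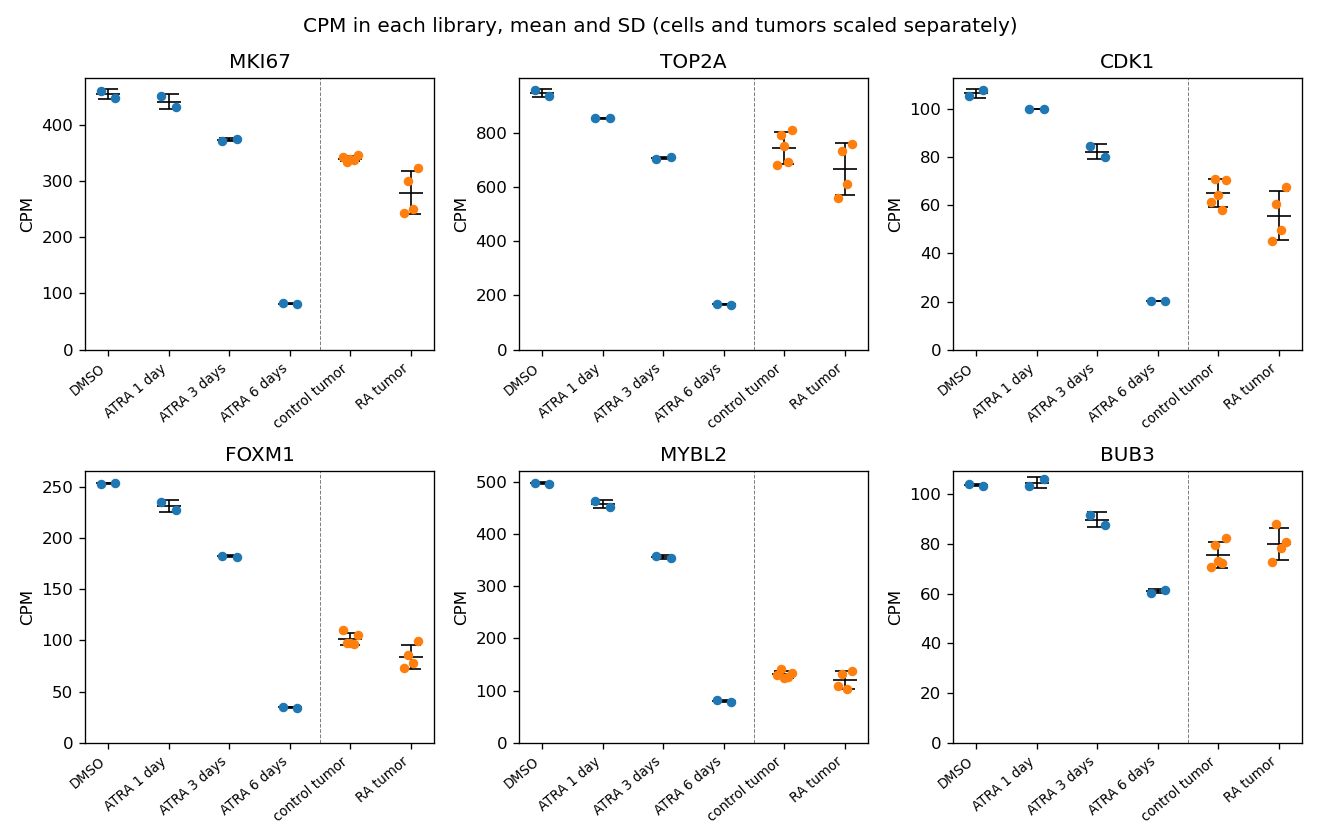
CPM (vertical axis, linear and from 0) of 6 members in each library, with a point per library and the mean with its SD per group; cells and tumors are scaled separately, so levels are to be compared on each side of the dashed line. The libraries at 6 days lie far below the others for MKI67, TOP2A, CDK1, FOXM1 and MYBL2, and BUB3 changes least.

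All 11 centromere and kinetochore genes were called. ZWINT went to 13.3 and 12.3 CPM from 87.5 and 88.8 CPM (−2.79 ± 0.05, FDR 1.03e-34). The 4 genes of the NDC80 complex, which grips the microtubule, were at −2.77 ± 0.05 (SPC24, from 72.7 and 70.4 CPM to 10.7 and 10.4 CPM, FDR 1.77e-33), −2.62 ± 0.06 (NDC80), −2.54 ± 0.08 (SPC25) and −2.25 ± 0.06 (NUF2). Genes of centromeric chromatin and the inner kinetochore were at −2.22 ± 0.06 (CENPA, the centromere histone), −2.52 ± 0.08 (CENPK) and −2.18 ± 0.07 (CENPN). The outer kinetochore genes KNTC1 and CENPF were at −2.08 ± 0.03 and −2.06 ± 0.02. CENPE, a motor that carries chromosomes to the spindle's middle, moved least, from 122 and 116 CPM to 34.1 and 29.5 CPM (−1.90 ± 0.05, FDR 1.26e-19).

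The chromosomal passenger complex corrects wrong attachments at the centromere. AURKB went from 98.1 and 93.5 CPM to 13.6 and 12.4 CPM (−2.88 ± 0.05, FDR 8.59e-35) and CDCA8, or borealin, from 138 and 141 CPM to 19.7 and 18.6 CPM (−2.86 ± 0.04, FDR 1.14e-37). BIRC5, or survivin, was at −2.43 ± 0.03. INCENP, the scaffold of the same complex, went from 153 and 152 CPM to 44.3 and 43.9 CPM (−1.79 ± 0.03, FDR 8.44e-34). All 4 were called, with INCENP 3.45-fold and AURKB 7.38-fold lower than with DMSO.

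Of the 5 spindle checkpoint genes 4 were called. TTK, the kinase that starts checkpoint signals, went from 56.6 and 56.4 CPM to 8.38 and 8.88 CPM (−2.71 ± 0.06, FDR 6.48e-32). MAD2L1, which locks the anaphase activator CDC20, went from 179 and 172 CPM to 29.5 and 33.4 CPM (−2.48 ± 0.04, FDR 2.59e-27). BUB1B and BUB1 were at −2.47 ± 0.04 and −2.29 ± 0.05. BUB3, which carries BUB1 and BUB1B to the kinetochore, went from 104 and 104 CPM to 60.4 and 61.6 CPM (−0.77 ± 0.03, 1.70-fold lower, FDR 9.42e-22), and it is the member that was not called.

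The 5 genes of the spindle and its poles were called. DLGAP5, which stabilizes spindle microtubules, went from 74.4 and 73.1 CPM to 12.1 and 12.8 CPM (−2.57 ± 0.05, FDR 2.03e-32), and TPX2, which activates AURKA on the spindle, from 349 and 342 CPM to 61.7 and 60.5 CPM (−2.50 ± 0.03, FDR 1.93e-40). AURKA was at −2.44 ± 0.04. NEK2 was at 9.41 and 8.85 CPM (−2.20 ± 0.06). HMMR went from 59.2 and 59.5 CPM to 15.3 and 15.3 CPM (−1.96 ± 0.05, FDR 7.78e-29).

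Among the 6 genes of cohesion and anaphase, UBE2C, the enzyme that feeds ubiquitin to the anaphase-promoting complex, had the largest fall of all 49, from 168 and 172 CPM to 23.3 and 21.7 CPM (−2.92 ± 0.04, 7.55-fold lower, FDR 1.51e-38). SGO1, or shugoshin, which guards cohesin at the centromere, went from 43.1 and 43.2 CPM to 7.23 and 6.82 CPM (−2.62 ± 0.06, FDR 4.75e-30). CDC20 was at −2.60 ± 0.05, ESPL1, or separase, at −2.56 ± 0.03 and SGO2 at −2.17 ± 0.05. PTTG1 went to 12.4 and 13.1 CPM (−2.16 ± 0.05, FDR 1.13e-29). For cytokinesis, ANLN was at 25.9 and 26.6 CPM against 145 and 138 CPM (−2.43 ± 0.04, FDR 7.71e-36), PRC1, which bundles the midzone microtubules, at 37.7 and 37 CPM against 177 and 175 CPM (−2.24 ± 0.03, FDR 7.42e-36), and ECT2, which switches on the contractile ring, at 33.0 and 36.1 CPM against 127 and 124 CPM (−1.86 ± 0.04, FDR 1.34e-32).

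In the annotation of hg38 (GENCODE v44), 13 members share exons with another gene whose count is at least 5% of theirs: ANLN, BUB1B, CCNA2, CDC25C, CENPA, CENPN, FOXM1, NCAPG, NUF2, PRC1, SGO2, SMC4 and SPC24. How the counting divided such reads is not given in the sources used here, so the sizes of these changes are less certain. Members with a CHR in a promoter window were at a median of −2.40 at 6 days (27 genes) and those without at −2.57 (14 genes).

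Beyond these 49, a list of 99 other measured mitosis genes gave a median of −1.59 at 6 days, with 60 called lower and 1 higher. Of all 20237 genes 12.3% were called lower and 3810 were called higher. KIF18B, a kinesin that trims microtubule ends, fell 9.25-fold, SKA3, of the outer kinetochore, 8.44-fold, CDCA5, or sororin, which holds cohesin closed, 8.20-fold, CDC25A 6.79-fold and CENPU 6.68-fold. All 11 mitotic kinesins of that list were called lower (median −2.43), as were all 7 further genes for entry into mitosis (−2.37). The list was less even than the 49. Of 17 genes of the anaphase-promoting complex 2 were called lower (median −0.57), where 12.3% of all genes were. Of 10 genes of the MuvB core and DREAM 3 were called lower (median −0.78), with RBL2, the p130 pocket protein that DREAM uses in resting cells, at 0.15 ± 0.04. CENPP was the gene that rose (2.30-fold), and its span encloses genes on the other strand. Its level had already risen 2.33-fold at 1 day. Of 39 DNA replication genes all were called lower at 6 days (median −2.21). At 1 day their median was 0.002, with 4 lower and 9 higher by FDR alone, where 13.3% of all genes were lower and 13.1% higher. The 49 stood at −0.11 at 1 day, with 26 lower and 1 higher.

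In tumors given 13-cis-retinoic acid the median log2 fold change of the same genes was −0.21, against −0.008 over 21098 genes. None was called by edgeR or by DESeq2, where 0.284% of all genes were called in either direction. At an unadjusted p under 0.05, 25 of the 49 were lower, and the share of all genes at that p was not computed. By FDR alone 1 was lower, where 0.218% of all genes were lower. The estimate was below 0 for 48 of 49 and above 0 for BUB3 (0.08 ± 0.07), where the median over all genes was −0.008. The gene that passed was BIRC5. It was at 199, 178, 178, 173 and 211 CPM in control tumors 1 to 5 and at 123, 143, 131 and 169 CPM in RA tumors 1 to 4 (−0.41 ± 0.09, 1.33-fold lower, FDR 0.0366), so that all RA tumors lay below all control tumors. Its FDR was under 0.05 in 8 of 16 settings, with a range of 0.00252 to 0.253. SPC24 was at −0.40 ± 0.10 (FDR 0.0750) and CENPN at −0.33 ± 0.10 (FDR 0.131). The groups did not overlap, with RA tumors lower, for 7 members: BIRC5, BUB1B, CENPE, CENPF, MKI67, PTTG1 and ZWINT, where 2.26% of all genes did so. MKI67 was at 342, 334, 339, 337 and 347 CPM in control tumors and at 243, 300, 250 and 323 CPM in RA tumors (−0.28 ± 0.08, FDR 0.0944). The control tumors lay close together and the RA tumors were spread below them.

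The other members overlapped between the groups. TOP2A was at 680, 793, 750, 690 and 809 CPM in control tumors and at 558, 732, 611 and 759 CPM in RA tumors (−0.16 ± 0.09). CDK1 was at 61.2, 71.1, 64.1, 58 and 70.7 CPM and at 45, 60.5, 49.6 and 67.4 CPM (−0.22 ± 0.11). FOXM1 was at 110, 97.4, 97.2, 96.1 and 106 CPM and at 73.1, 85.4, 78.1 and 99.8 CPM (−0.27 ± 0.08). In these 3 genes RA tumors 1 and 3 lay below every control tumor, and RA tumor 4 lay among them. CDC20 (−0.02 ± 0.08) and HMMR (−0.03 ± 0.11) had the estimates nearest 0. By role the medians ran from −0.26 for the passenger complex and for the centromere and kinetochore to −0.15 for cytokinesis. The 99 other mitosis genes had a median of −0.16 in tumors, and of them SPDL1, which helps recruit dynein to kinetochores, was lower by FDR alone (−0.32 ± 0.07, FDR 0.0306). The 39 DNA replication genes had a median of −0.22.

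The medians of the RA tumors covered a wider range than those of the control tumors, a difference in spread that was not tested. As a median over the 49, the level relative to the control mean was −0.41 in RA tumor 1, −0.14 in RA tumor 2, −0.32 in RA tumor 3 and −0.01 in RA tumor 4 on the log2 scale, while control tumors 1 to 5 lay at −0.05, 0.05, 0.004, −0.07 and 0.10. RA tumor 1 was the lowest RA tumor for 43 members and RA tumor 4 the highest for 45. The shares of all genes with these orders were not computed. The 49 members come from the same libraries, so these counts are not separate observations. Total counts of RA tumors 1 to 4 were 17326052, 26100227, 21619267 and 29078822, and the mitochondrial share of counts was 5.07%, 3.32%, 3.82% and 3.10%, so among these 4 libraries those with fewer counts and more mitochondrial RNA had the lower levels. The control tumors did not show that order in counts, but by mitochondrial share they came close to it. They had 17266484 to 19995794 counts, and control tumor 5, with the highest median of members, had 17738055 counts. Mitochondrial shares were 4.65%, 3.42%, 4.34%, 5.74% and 4.17% in control tumors 1 to 5. Control tumor 4, with the highest share, had the lowest median, and control tumors 2 and 5, with the lowest shares, had the highest medians. The part of depth and RNA quality in this was not tested. Without RA tumor 4 the number lower by FDR alone was 18, with log2 fold changes of −0.50 to −0.30, where 1.18% of all genes were lower in that fit, against 0.218% with all tumors. Without RA tumor 1, 2 or 3, or control tumor 1, 3 or 5, it was 0, where 0.014% to 0.191% of all genes were lower. It was 2 without control tumor 4 (0.235% of all genes), 6 by DESeq2 (1.05%), 11 with all 17 libraries in 1 fit (1.3%) and 3 with no filter on low counts (0.3%).

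**Figure D3:**
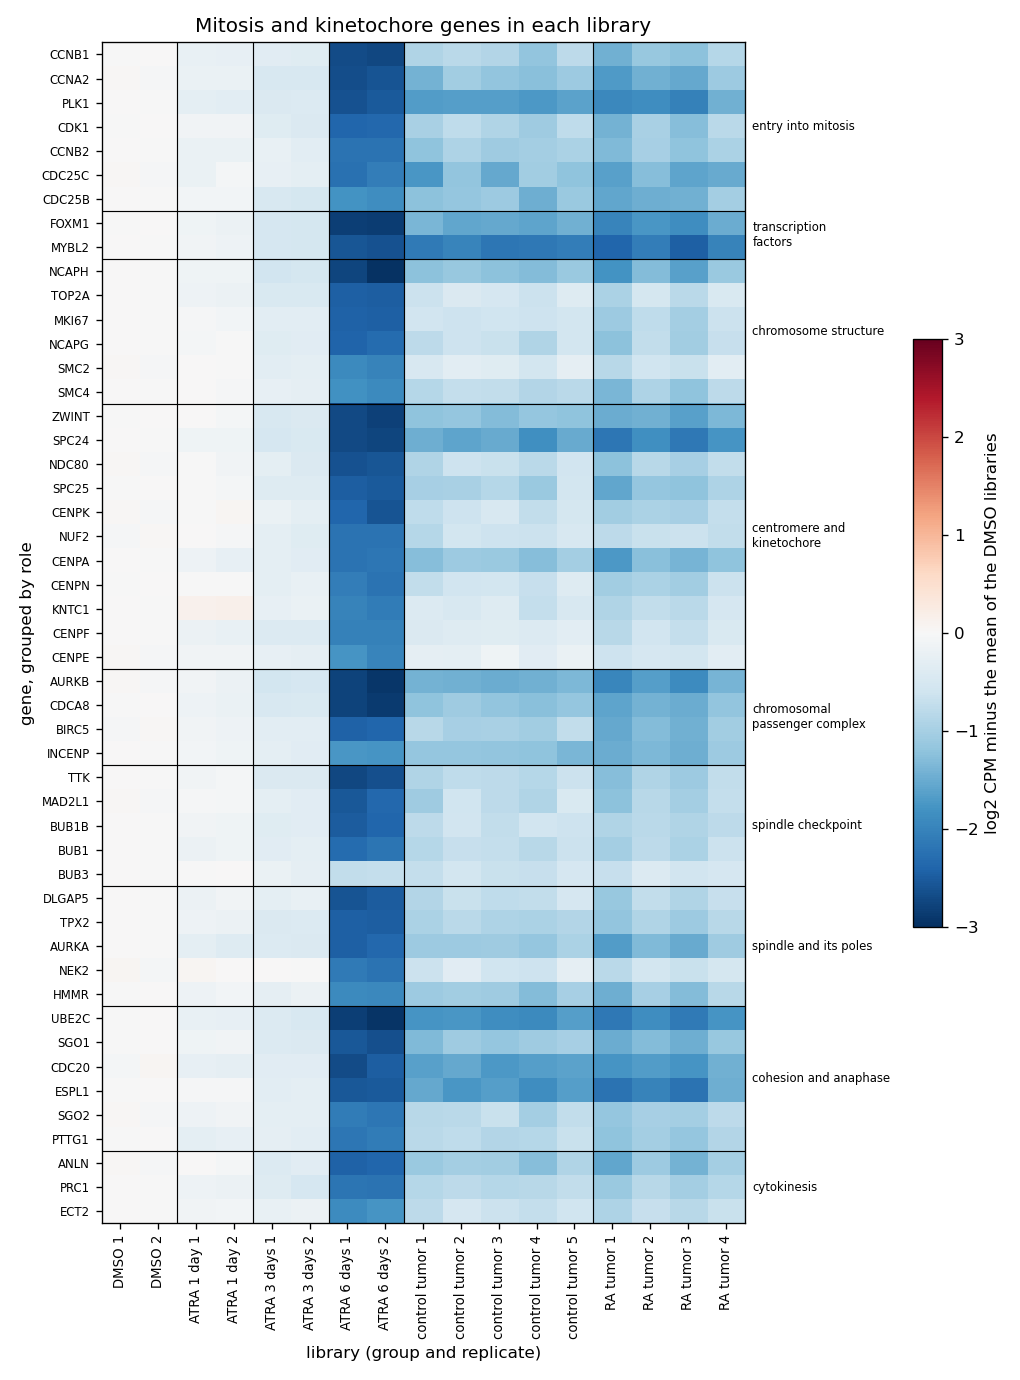
Color gives log2 CPM minus the mean of the DMSO libraries, from all 17 libraries scaled together, for 49 genes (rows, by role) in each library (columns). The libraries at 6 days are darkest, and the tumors lie between them and the other cultures; RA tumors 1 and 3 are lower than RA tumors 2 and 4.

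Control tumors stood lower than cultured DMSO cells for all 49 genes by FDR alone, where 29.5% of all genes were lower, and 21 were called lower, where 11.4% of all genes were. The median was −0.89, against 0.25 over all 25787 genes, so that relative to all genes it was −1.13. With library size scaling 13 were called and the medians were −0.69 for members and 0.44 for all genes. The spread among members was wide. MYBL2 had the largest difference, at 125 to 141 CPM in control tumors and 498 and 496 CPM with DMSO, each scaled within its own set (−2.09 ± 0.08 in the fit of all libraries, 4.27-fold lower, FDR 5.13e-14). UBE2C was at −1.79 ± 0.08, ESPL1 at −1.69 ± 0.14, PLK1 at −1.67 ± 0.10 and CDC20 at −1.64 ± 0.08, and FOXM1 at −1.49 ± 0.09. The other called members were SPC24, AURKB, CDC25C, INCENP, CDC25B, ZWINT, NCAPH, CCNA2, CDCA8, CENPA, SGO1, HMMR, AURKA, ANLN and CCNB2, at −1.58 to −1.03. CENPE (−0.25 ± 0.08, FDR 0.00692) and CENPF (−0.39 ± 0.07) differed least. By role the median was −1.79 for the transcription factors, −1.37 for cohesion and anaphase, −0.65 for chromosome structure and −0.62 for the centromere and kinetochore. CHP-134 cells in mice and in dishes also differed in library kit and in the mouse host, and these cannot be told apart from the site of growth. DNA replication genes were at a median of −1.09 in the same comparison, with 26 of 39 called lower.

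On a common scale of all 17 libraries, the median member stood at −2.43 and −2.37 relative to DMSO at 6 days, at −1.02 to −0.76 in control tumors and at −1.38 to −0.85 in RA tumors. For 48 of 49 genes both libraries at 6 days lay below all 9 tumors, BUB3 being the exception, where 37.1% of all genes did so. All 9 tumors lay below both DMSO libraries for all 49, where 28.5% of all genes did so.

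The effect of treatment in tumors and that of 6 days of ATRA in cells differed for 48 of the 49 (tumor effect higher), where 7.78% of all genes were called higher, with a median difference of 2.17 against −0.12 over all genes. UBE2C differed by 2.71 ± 0.13 (FDR 6.51e-12), NCAPH by 2.62 ± 0.18, CDCA8 by 2.59 ± 0.12, FOXM1 by 2.58 ± 0.13 and AURKB by 2.57 ± 0.16. BUB3 differed by 0.82 ± 0.11 and was below the fold threshold. Drug, dose, duration, site and library kit all differ between these settings and cannot be told apart.

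**Figure D4:**
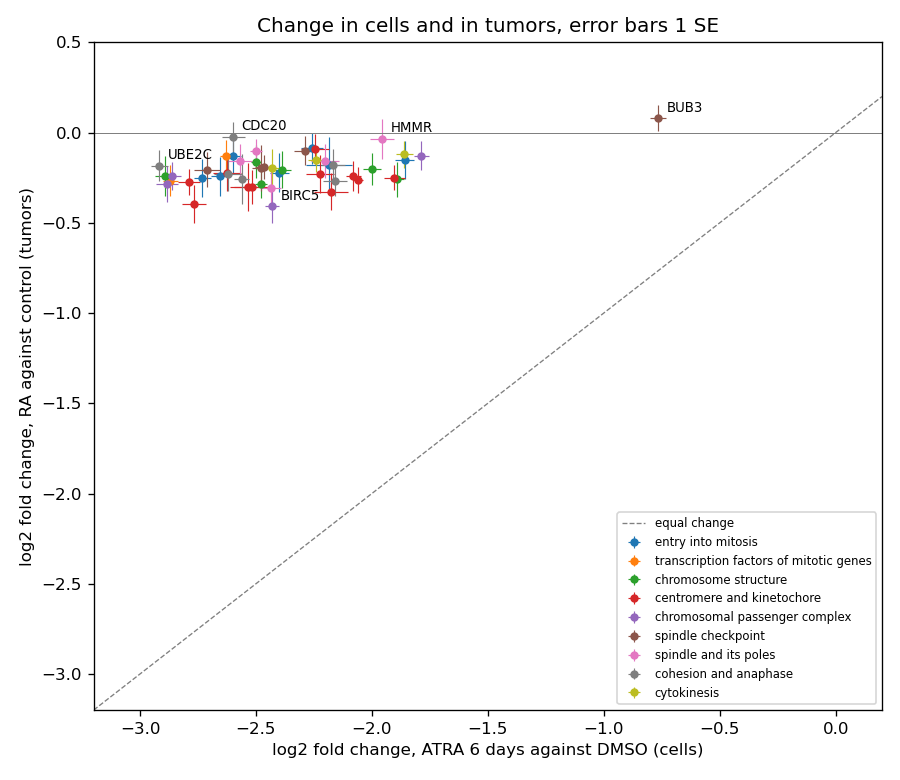
Log2 fold change of each member after 6 days of ATRA in cells (horizontal axis) and with 13-cis-retinoic acid in tumors (vertical axis), with bars of 1 SE, colors for roles and a dashed line of equal change. The members lie far above the line, between −0.41 and 0.08 in tumors and between −2.92 and −0.77 in cells.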

How the data were processed

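RNA of CHP-134 cells (8 libraries, by Illumina's Stranded Total RNA protocol, Ribo-Zero Plus) and of xenograft tumors (9 libraries; KAPA RNA HyperPrep kit with RiboErase, with ERCC spike-in RNA that was not used here) was sequenced on a NovaSeq. The deposited values are expected counts per gene: per the labels and the submitters' processing notes, the authors used Trim Galore 0.4.4, STAR 2.7.10a and RSEM 1.3.3 on hg38. The annotation release, the strand setting and any removal of mouse reads are not given in the sources used here. Expected counts were rounded to whole numbers.

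Fits were made of cells (20237 genes, 4 groups), tumors (21098 genes, 2 groups) and all 17 libraries (25787 genes, 6 groups), with edgeR 4.0.16 in R 4.3.3: filterByExpr (minimum count 10), TMM, robust quasi-likelihood test, Benjamini-Hochberg adjustment over all genes. Called means FDR under 0.05 and more than 2-fold. The SE is the log2 fold change over the square root of F, and ± is the SE. CPM are TMM-scaled within cells or within tumors. Nothing in the labels ties the culture replicates to separate flasks, so their p-values rest on a spread between samples that may be technical. The scripts were tested on simulated data. Comparisons against DMSO share its 2 libraries. DESeq2 1.42.0, other scalings, filters and left-out libraries were tried. Members and lists were chosen with earlier results of these data known. All members are named at 6 days; full statistics go to the 2 largest and the smallest change in each role, to all of a role of up to 3 genes, and to MKI67, TOP2A, CDK1, FOXM1 and MYBL2; in other comparisons to called members, or else the 3 with the largest change. KNTC1, NEK2, MKI67, PTTG1, BUB3, TOP2A, CDK1, FOXM1, CDC20, HMMR, CENPE, CENPF, RBL2 and SPDL1, and members listed by count, were named there as well after their values were seen. One marker of the lineage is not reported here.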

Additional observations from a re-analysis of the deposited data

Results flagged for a closer look

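INCENP in control tumors had 1 library apart from the others. Control tumor 5 was at 66.1 CPM, and the next lowest control tumor was at 74.5 CPM, a gap of 0.77 of the range of the group. This was 1 of 100 groups of values examined (49 members and their median in each of the 2 tumor groups), and a 95% critical value would by chance pass about 1 in 20 independent groups, which these are not, since they share libraries.

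The change in tumors and the change at 6 days in cells differed in a test of the difference itself for 48 members, and the 5 with the largest difference were UBE2C (2.71 on the log2 scale), NCAPH (2.62), CDCA8 (2.59), FOXM1 (2.58) and AURKB (2.57).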

How the results depend on the processing

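All 48 calls at 6 days, from 3 to 6 days and for the difference between tumors and cells were kept in number under other scalings, DESeq2, no filter on low counts, left-out libraries and other fits, and no called member changed sign. At 1 day, 3 days, from 1 to 3 days and in RA tumors, 0 members were called under each alternative with the fold threshold, and with FDR alone the counts were 27, 48, 40 and 1, against 49 for control tumors and DMSO cells. With all 17 libraries in 1 fit the counts past FDR alone, a measure added after seeing the data, were 0 at 1 day, 25 at 3 days, 2 from 1 to 3 days and 11 in RA tumors. That fit pools the spread of cells with the larger spread of tumors. In RA tumors the count was 0 with library size scaling, 3 with no filter, 6 with DESeq2, and 0 to 18 with 1 tumor left out. Control tumors against DMSO cells had 13 calls and a median of −0.69 with library size scaling, and a median of −0.98 with no filter. Medians at 3 days were −0.35 with DESeq2 scaling factors (RLE), DESeq2 or all libraries in 1 fit, and from 1 to 3 days −0.26 in the same 3 settings. At 6 days the median was −2.39 with library size scaling and −2.48 with no filter, and from 3 to 6 days −2.05 with all libraries in 1 fit. With 1 library left out, medians were −0.121 to −0.087 at 1 day and −0.25 to −0.23 from 1 to 3 days, where a lone sample is assumed to vary like the other groups. The cause of these shifts was not tested. Signs of uncalled estimates changed in 25 of 539 values at 1 day, 1 of 539 at 3 days, 3 of 539 from 1 to 3 days and 5 of 735 in RA tumors.

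With a replicate block, control tumors against DMSO cells had a median of −1.06 and 27 calls, and RA tumors 0 members past FDR alone. The deviations of samples with the same number correlated at −0.05 to 1.18e-05 in cells and −0.38 to 0.14 in tumors. Those of samples with different numbers correlated at −1.18e-05 to 0.05 in cells and −0.19 to 0.43 in tumors. With 2 libraries per culture group the 2 deviations mirror each other, and tumors gave 4 pairs with the same number. These values therefore cannot decide whether samples were paired. The lowest count of a member was 88, and the part of counting depth in the small changes was not tested.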
